A study of Mus musculus with 4 samples.

Results

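NF-kB is a family of dimeric transcription factors whose genes were examined here in double positive (DP) thymocytes, the stage of T cell development that carries both CD4 and CD8. The set held the 5 subunit genes Nfkb1, Nfkb2, Rel, Rela and Relb, and 5 genes of inhibitors or regulators, Nfkbia, Nfkbib, Nfkbid, Nfkbiz and Tnfaip3. The members were the rows of the deposited fragment count table that carry these symbols, and all 10 were found among its 24984 genes. The assay was TTchem-seq, which labels RNA made in a short pulse with 4-thiouridine and sequences the fragmented labelled RNA, so that the signal over exons and introns reports transcriptional output. Libraries came from Tox4 WT mice, whose genotype label is Tox4;F/F, and from Tox4 conditional knockout (cKO) mice, labelled Tox4;F/F;Lck+, with 2 libraries per genotype.

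Per the study's methods, littermates of the same sex aged 6 to 8 weeks were used, and the floxed Tox4 alleles, shared by both genotypes, flank exons 4 to 6 on a C57BL/6 background. Cre in the cKO mice is driven by the proximal Lck promoter, which acts in the T lineage from a stage before DP. The WT mice carried no Cre, so that Cre and the deletion of Tox4 cannot be told apart. For the CUT&Tag and ATAC-seq assays of the study DP cells were purified by CD4, a step that would also keep CD4 single positive cells. For RNA-seq DP cells were sorted by flow cytometry, and the purification for TTchem-seq is not given in the sources used here. Isolated cells were held briefly in culture medium before labelling, in both genotypes. The comparison asks how loss of Tox4, an HMG box protein of a phosphatase complex that acts on RNA polymerase II, changes transcriptional output of these genes.

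In resting cells, NF-kB dimers are held in the cytoplasm by IkB proteins. In the canonical pathway, a T cell receptor or cytokine signal activates the IKK complex, IkB alpha is degraded, and dimers of p65, c-Rel and p50 enter the nucleus. In the non-canonical pathway, NIK and IKK alpha lead to processing of the p100 precursor to p52, which pairs with RelB. The genes of IkB alpha, A20, p100 and RelB are themselves known targets of NF-kB, which gives the pathway feedback loops. In the thymus, NF-kB is known to support survival after pre-TCR signalling and the later maturation of selected thymocytes.

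Libraries held between 38429786 and 48690591 fragments, and 11625 genes had a mean of at least 1 CPM, the fragments of a gene scaled to a common library total. Of these, 182 were decreased and 249 increased in cKO at the criteria of the study, which ask for a DESeq2 adjusted p-value below 0.05, a change of 1.2-fold or more and 1 CPM or more on average. Tox4 itself was at 74.04 and 70.3 CPM in WT and at 59.3 and 57.2 CPM in cKO over its whole locus, with a log2 fold change of -0.31 (SE 0.0998, with an adjusted p-value by DESeq2 of 0.0453), while edgeR gave 0.122 and each fit without 1 library gave between 0.196 and 0.792. Cd4 and Cd8a, which define DP cells, were at or above 383 CPM in every library. Of the 10 DP markers listed, Cd8a, Rag1 and Tcf7 were decreased in cKO by DESeq2 (log2 fold changes of -0.54, -0.31 and -0.33), 0 were increased, and edgeR called 0. Themis and Arpp21 had both cKO libraries above WT, the median of the list was -0.05, and its sum was 10263 and 11317 CPM in WT and 10613 and 9452 CPM in cKO. Summed over each marker list, B cell, myeloid, erythroid and thymic epithelial genes reached at most 14.3, 13.6, 0.516 and 1.13 CPM in a library, and Psmb11 was at 0 in all 4. Markers of mature single positive T cells were present and changed: of 6 genes reported, Ccr7 and Gimap4 were decreased and Il7r increased by DESeq2 (log2 fold changes of -0.34, -0.51 and 0.36), and edgeR called 0. Their median was -0.31, 4 of 6 had both cKO libraries below WT, and their sum was 513.0 and 493.9 CPM in WT and 467.1 and 405.8 CPM in cKO, lower in both cKO libraries as for most members, and its part in their changes was not tested. WT replicate 1 stood apart in genes of the sex chromosomes, with Xist at 171.7 CPM and Ddx3y, Eif2s3y, Kdm5d and Uty at or below 0.962 CPM. In the other 3 libraries Xist was at or below 2.36 CPM and these Y-linked genes at or above 19.5 CPM. These values differ between the WT libraries and go against the sex matching that the methods describe. Calls of members are therefore also given without WT replicate 1.

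Output of Nfkb2, Relb and Nfkbia was decreased in cKO, and no member was increased by DESeq2 or edgeR, which called 2.14% and 0.508% of all tested genes as increased. Nfkb2 fell most, by 0.55 on the log2 scale, followed by Relb with 0.43 and Nfkbia with 0.38 below WT. The fitted log2 fold change was below 0 for all 10 members, with a median of -0.26, against a median of 0.00 over all tested genes, of which 49.8% were below 0. The share of members decreased was 3 of 10, beside 1.57% of all tested genes, and 2.53% of the 5608 genes at or above the lowest member in mean CPM. In 8 members both cKO libraries lay below both WT libraries, which held for 24% of all tested genes. The libraries of Rel and Tnfaip3 overlapped. Before adjustment, 5 members had a p-value under 0.05, beside 13.5% of all tested genes. The members were described as a list and no test was made over them, and in RNA of a bulk population fewer cells of a type and less RNA per cell cannot be told apart.

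The number of members called as decreased depended on the libraries kept. Without WT replicate 1 and without WT replicate 2 it was 1, Nfkb2, beside 0.611% and 1.08% of all tested genes. Without cKO replicate 1 it was 2, Nfkb2 and Nfkbia, beside 0.413%, and without cKO replicate 2 it was 0, beside 0.241%. With the replicate number as a block it was 1, Nfkb2, by DESeq2 and by edgeR, beside 0.619% and 0.249% of all tested genes.

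The members covered a wide range of output. Levels of different genes are given as CPM per kb of the gene interval, introns included, since longer genes collect more fragments. Nfkbia was highest, at 70.7 ± 4.87 CPM per kb (SD, n = 2) in WT and 54.5 ± 9.11 in cKO, and lay above 99.4% of tested genes on this scale. Tnfaip3 followed with 39.2 ± 1.47 in WT and 37.3 ± 1.34 in cKO, above 98.9% of tested genes. Both inhibitors stood well apart from the other members, whose WT means lay between 1.69 and 8.71 CPM per kb.

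Among the remaining members in WT, Nfkb2 with 8.71 ± 0.129 CPM per kb and Rela with 6.52 ± 0.121 were the highest subunits. Nfkbid had 4.41 ± 0.138, Nfkbib 4.11 ± 0.0721, Nfkb1 3.41 ± 0.126 and Relb 2.93 ± 0.0582 CPM per kb. The 2 lowest were Rel with 1.71 ± 0.285 and Nfkbiz with 1.69 ± 0.129, whose WT libraries overlapped. The libraries of all other neighbours in this order were separate in WT. In cKO the means kept this order, but the libraries of Nfkb2, at 5.95 ± 0.0226, overlapped with those of Rela, at 5.79 ± 0.309 CPM per kb, whereas Rel and Nfkbiz were separate.

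**Figure D1:**
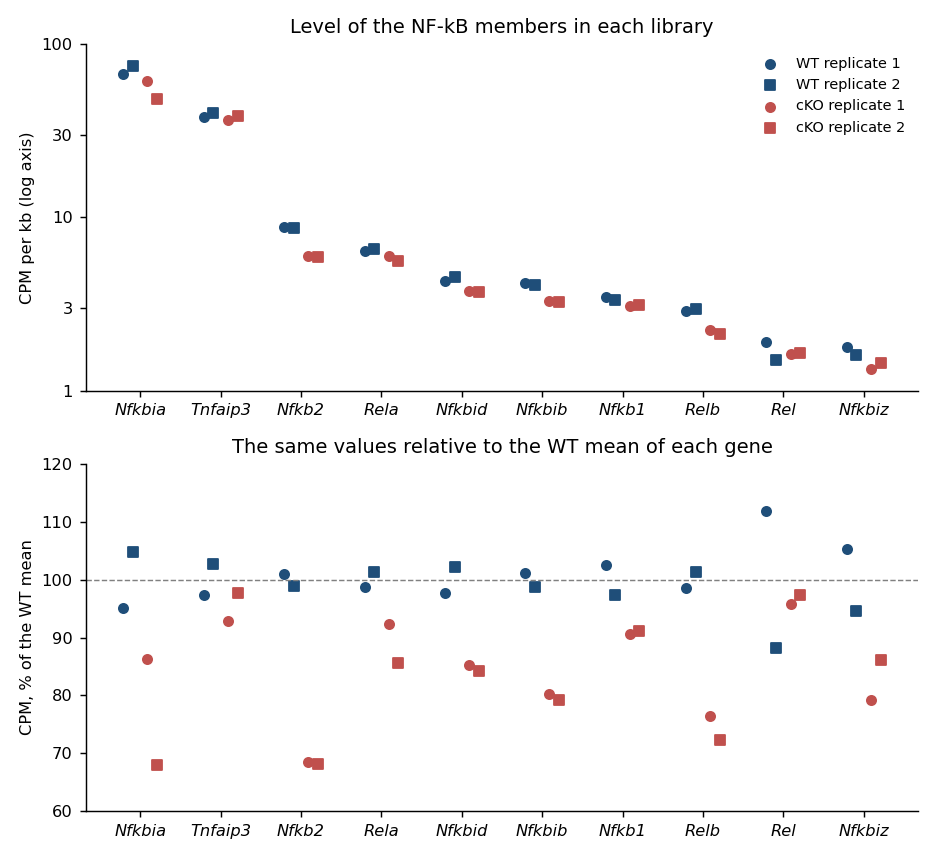
The upper panel plots CPM per kb of each member in each library on a log axis, and the lower panel plots CPM as a percentage of the WT mean of the same gene. Blue symbols are WT and red symbols cKO, with circles for replicate 1 and squares for replicate 2. Nfkb2, Relb, Nfkbib and Nfkbid show both cKO libraries close together and below WT, whereas the cKO libraries of Nfkbia are spread and those of Rel and Tnfaip3 overlap with WT.

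The pair of subunits of the non-canonical pathway was examined first. Nfkb2 (chr19:46304737-46312090, GRCm38, plus strand, 7354 bp) encodes p100, the precursor of p52, which also acts as an inhibitor through its ankyrin repeats. Its level was 64.8 and 63.4 CPM for the WT pair of libraries, against 43.9 and 43.6 CPM for the cKO pair. The groups did not overlap, and the gap between them was far larger than the difference within either genotype. In the DESeq2 fit the log2 fold change was -0.55 (SE 0.104) at an adjusted p-value of 1.74e-05, so that output in cKO was 68.1% of WT with a 95% interval of 59.1% to 78.5%. Only 2.55% of all tested genes had a lower log2 fold change. Nfkb2 was the only member that was also called by edgeR (adjusted p-value 0.0328) and by limma voom (0.0326), which called 0.146% and 0.138% of all tested genes as decreased. Without WT replicate 1 its log2 fold change was -0.55 with a DESeq2 adjusted p-value of 0.0192, and the call was lost without cKO replicate 2, where the change was -0.55 with an adjusted p-value of 0.0577.

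Relb (chr7:19606222-19629438, minus strand, 23217 bp) encodes RelB, the usual partner of p52 in the nucleus. WT libraries had 67.02 and 68.9 CPM and cKO libraries 51.9 and 49.1 CPM. Again both cKO libraries lay below both WT libraries. In the DESeq2 fit the log2 fold change was -0.43 (SE 0.103) at an adjusted p-value of 0.00183, or 74.2% of WT with a 95% interval of 64.5% to 85.3%. The call was made by DESeq2 alone, since edgeR gave an adjusted p-value of 0.0704 and limma voom 0.0658. It was lost in each fit without 1 library, where the adjusted p-value ranged from 0.0719, without WT replicate 1, to 0.429, without cKO replicate 2, with log2 fold changes from -0.46 to -0.40.

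The subunits of the canonical pathway did not pass the test. Nfkb1 (chr3:135584655-135691547, minus strand, 106893 bp), which encodes p105 and its product p50, was at 373.5 and 354.5 CPM in WT and at 330.1 and 331.6 CPM in cKO. Both cKO libraries were lower, but the log2 fold change of -0.14 (SE 0.0728) did not pass, with a DESeq2 adjusted p-value of 0.364 and a 95% interval from -0.28 to 0.00. Rela (chr19:5637541-5648134, plus strand, 10594 bp), the gene of p65, was at 68.1 and 69.9 CPM in WT and at 63.7 and 59.05 CPM in cKO. Its log2 fold change of -0.17 (SE 0.101) had a DESeq2 adjusted p-value of 0.471 and a 95% interval from -0.37 to 0.03. These intervals leave room for a fall of Nfkb1 to 82.2% and of Rela to 77.3% of WT.

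Rel (chr11:23736850-23770969, minus strand, 34120 bp) encodes c-Rel, the subunit most restricted to lymphoid and myeloid cells. The WT libraries were at 65.05 CPM (replicate 1) and 51.3 CPM (replicate 2) and the cKO libraries at 55.8 and 56.6 CPM, so that both cKO libraries lay between the WT libraries. In the DESeq2 fit the log2 fold change was -0.05 (SE 0.124) at an adjusted p-value of 0.919, with a 95% interval from -0.29 to 0.19. Rel was the member with the largest difference between WT libraries, -0.34 on the log2 scale for WT replicate 2 over replicate 1, and its sign turned to 0.12 without WT replicate 1.

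Ratios of 2 members within a library do not depend on how libraries are scaled. Per kb, the output of Nfkb2 relative to Nfkb1, the other precursor gene, was 2.52 and 2.6 in WT and 1.93 and 1.91 in cKO. The output of Relb relative to Rela was 0.449 and 0.45 in WT and 0.372 and 0.38 in cKO. Both ratios were thus lower in each cKO library than in each WT library, at 75.05% and 83.6% of the WT mean. They use the same counts as the fold changes above and are not separate evidence. With 2 libraries against 2, an exact permutation test cannot give a two-sided p-value below 0.333, so no test was made of these ratios.

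**Figure D2:**
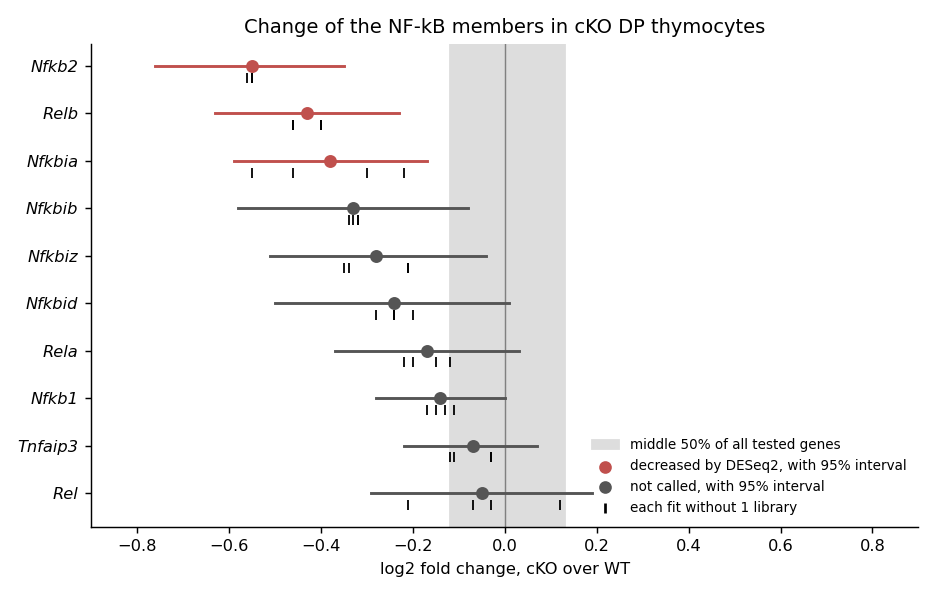
The plot shows the log2 fold change of each member, cKO over WT, as a point with its 95% interval, in red where decreased by DESeq2 and in grey where not called. Black ticks are the values with 1 library left out, and the grey band holds the middle 50% of all tested genes (-0.12 to 0.13). The intervals of Nfkb2, Relb and Nfkbia lie left of the band, and the ticks of Rel fall on both sides of 0.

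Among the classical inhibitors, Nfkbia (chr12:55489409-55492647, minus strand, 3239 bp) encodes IkB alpha, which retains NF-kB in the cytoplasm and is resynthesised after each round of activation. It was at 217.9 and 240.2 CPM in WT and at 197.5 and 155.8 CPM in cKO. The cKO libraries were both lower but differed by -0.34 on the log2 scale between themselves, more than those of any other member. In the DESeq2 fit the log2 fold change was -0.38 (SE 0.107) at an adjusted p-value of 0.0144, or 76.9% of WT with a 95% interval of 66.5% to 89.0%. The edgeR and limma voom adjusted p-values were 0.184 and 0.172. Its size moved with the libraries kept, from -0.22 without cKO replicate 2 (adjusted p-value 0.882) to -0.55 without cKO replicate 1 (0.00476). The value was -0.46 without WT replicate 1 (adjusted p-value 0.875) and -0.30 without WT replicate 2 (0.893).

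Nfkbib (chr7:28758251-28766644, minus strand, 8394 bp) encodes IkB beta, another cytoplasmic inhibitor that is degraded more slowly. It was at 34.9 and 34.05 CPM in WT and at 27.7 and 27.3 CPM in cKO, with little difference within each genotype. The log2 fold change of -0.33 (SE 0.126) had an unadjusted p-value of 0.00893 and a DESeq2 adjusted p-value of 0.13, and so it did not pass. The value varied little, from -0.34 to -0.32, when each library was left out in turn.

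Nfkbid and Nfkbiz encode the nuclear regulators IkBNS and IkB zeta, which bind NF-kB on DNA and can raise or lower the activity of its target genes. Nfkbid (chr7:30421731-30428746, plus strand, 7016 bp) was at 30.3 and 31.6 CPM in WT and at 26.4 and 26.1 CPM in cKO, a log2 fold change of -0.24 (SE 0.131, with an adjusted p-value by DESeq2 of 0.401). Nfkbiz (chr16:55811377-55838641, minus strand, 27265 bp) was at 48.5 and 43.5 CPM in WT and at 36.5 and 39.6 CPM in cKO, a log2 fold change of -0.28 (SE 0.121, with an adjusted p-value by DESeq2 of 0.226). In both genes the cKO libraries lay below the WT libraries without passing the test. Their 95% intervals were -0.50 to 0.01 and -0.51 to -0.04.

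Tnfaip3 (chr10:19000910-19015410, minus strand, 14501 bp) encodes A20, a ubiquitin-editing enzyme that ends signalling upstream of IKK. It had the highest CPM of the members, at 553.1 and 583.2 in WT and at 527.5 and 555.0 in cKO. The upper cKO library exceeded the lower WT library. In the DESeq2 fit the log2 fold change was -0.07 (SE 0.0739) at an adjusted p-value of 0.765, with a 95% interval from -0.22 to 0.07, so that a fall below 86.0% of WT lies outside the interval. Per kb, the output of Nfkbia relative to Tnfaip3 was 1.76 and 1.84 in WT and 1.68 and 1.26 in cKO. Relative to Nfkbib, Nfkbia was at 16.2 and 18.3 in WT and 18.5 and 14.8 in cKO, and this ratio overlapped between genotypes.

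Summed per kb, the 5 subunit genes were at 23.5 and 23.01 in WT and at 18.9 and 18.4 in cKO, whereas the 5 inhibitor and regulator genes were at 115.7 and 124.5 in WT and at 105.7 and 94.8 in cKO. The inhibitor sum was 4.92 and 5.41 times the subunit sum in WT and 5.59 and 5.16 times in cKO. Both sums were lower in cKO, and their ratio overlapped between genotypes. The inhibitor sum is mostly that of Nfkbia and Tnfaip3.

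**Figure D3:**
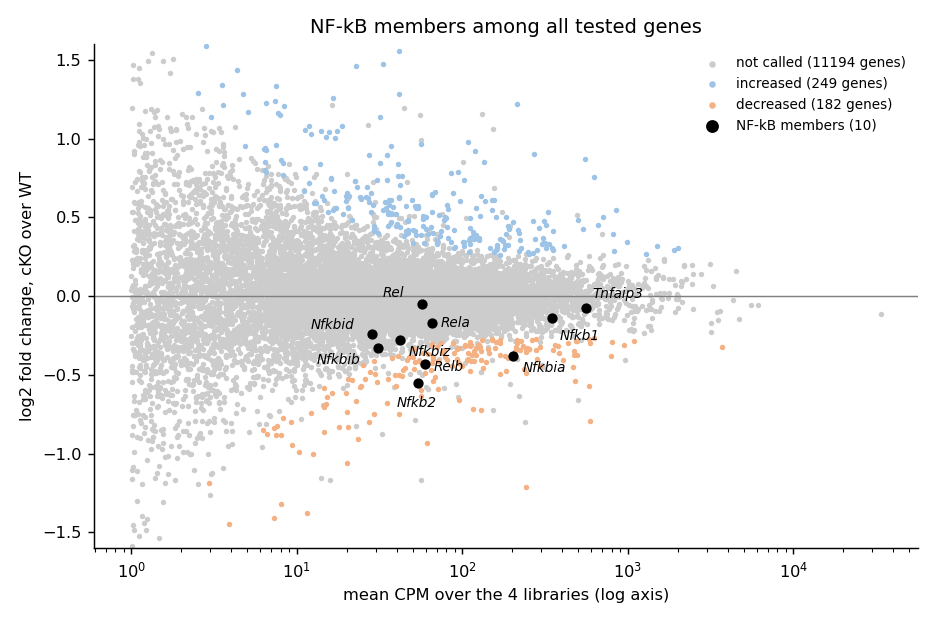
The plot shows the log2 fold change, cKO over WT, of all tested genes against their mean CPM on a log axis, with increased genes in blue, decreased genes in orange and the 10 members in black. The vertical axis ends at 1.6 on either side, which leaves out 16 genes. All members lie below 0 and above 28 CPM, where the spread of the other genes is narrow, and Nfkb2, Relb and Nfkbia lie among the decreased genes.

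Sequences upstream of the members were searched for the kappaB consensus, the 10-base motif that NF-kB dimers bind, which opens with GGG followed by a purine and closes with a run of pyrimidines ending in CC. The 250 bases before each annotated start were read on both strands from RefSeq promoter sequences of GRCm38.p6, in which 7 of the 10 members were matched. Entries for Nfkb1, Relb and Nfkbiz were not used here. Genes with more annotated starts had more sequence searched, and Nfkb2 and Nfkbid each had 3 starts. At least 1 match was found for 5 of the 7, Nfkb2, Rel, Nfkbia, Nfkbid and Tnfaip3. It was also found for 8.23% of all 27025 genes in that table and for 10.6% of the 9110 tested genes in it. A match was thus found for Rel and Tnfaip3, which overlapped between genotypes, as well as for Nfkb2 and Nfkbia, which were decreased. The sequences below end at or near the start of transcription and are shown to compare these 4 genes, 5′ to 3′ on the strand of the gene (plus for Nfkb2, minus for the others), with matches on either strand in capitals. For Nfkb2, 30 bases around the first match are given, since a predicted transcript covers the region.
Nfkb2, chr19:46304693-46304722: gtcacGGGAATTCCCCccctcggggggccg
Nfkbia, chr12:55492648-55492797: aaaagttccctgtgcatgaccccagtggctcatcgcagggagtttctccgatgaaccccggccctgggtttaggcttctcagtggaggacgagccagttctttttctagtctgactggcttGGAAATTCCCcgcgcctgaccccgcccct
Rel, chr11:23770970-23771119: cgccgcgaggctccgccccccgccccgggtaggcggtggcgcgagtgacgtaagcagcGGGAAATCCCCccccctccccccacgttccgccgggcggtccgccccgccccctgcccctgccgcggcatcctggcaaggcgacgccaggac
Tnfaip3, chr10:19015411-19015560: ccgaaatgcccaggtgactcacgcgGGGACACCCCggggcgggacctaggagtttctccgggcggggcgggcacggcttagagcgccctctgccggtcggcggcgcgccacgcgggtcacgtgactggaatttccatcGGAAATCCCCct

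In Nfkb2 the matches began 39 and 38 bases before the start and overlapped, and a further one, GGGGCTTTCC, began 11 bases before it. Nfkb2 also had a match 236 bases before the second annotated start and 225 bases before the third. In Nfkbia the match lay on the opposite strand and covered the bases from 29 to 20 before the start. In Rel the overlapping matches began 92 and 91 bases before the start, and in Tnfaip3 they began 125 and 12 bases before it. The matches of Nfkbid, 226 and 181 bases before a start, belonged to 1 of its annotated starts. A match describes these letters, and binding was not measured in this assay.

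Genes that act around the members were taken from lists of 60 receptors, ligands, adaptors, kinases, other IkB proteins and ubiquitin or turnover regulators of the pathway. Of the 53 with a mean CPM of at least 1, 5 were decreased (9.43%, beside 1.57% of all tested genes) and 0 increased by DESeq2, and 33 had a log2 fold change below 0, with a median of -0.09. At an unadjusted p-value under 0.05, 2 pathway genes were higher and 9 lower in cKO, and edgeR called 2 decreased and 0 increased. The 5 decreased by DESeq2 were Ltb, Traf1, Birc3, Tnip1 and Zc3h12a.

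Among 12 receptors and ligands, Ltb, which encodes lymphotoxin beta, a ligand that engages the non-canonical pathway, fell from 99.5 ± 9.08 to 73.5 ± 0.321 CPM (SD, n = 2; DESeq2 adjusted p-value 0.00103, log2 fold change -0.44 with SE 0.101). Cd27, with the next highest output per kb, averaged 85.6 ± 13.02 CPM (WT) against 103.8 ± 11.3 CPM (cKO) and was not called (log2 fold change 0.27, DESeq2 adjusted p-value 0.22), but was called as higher in cKO without WT replicate 2 (0.0296). Among 21 adaptors and upstream kinases, Traf1, a signalling adaptor, fell from 51.7 ± 14.8 to 30.8 ± 2.37 CPM (log2 fold change -0.75, DESeq2 adjusted p-value 5.45e-04). The WT libraries of Traf1 differed by -0.59 on the log2 scale. Birc3, a ubiquitin ligase that helps to restrain NIK, fell from 144.2 ± 5.50 to 113.5 ± 7.49 CPM (log2 fold change -0.35, DESeq2 adjusted p-value 0.00458). Prkcq and Traf6, the 2 highest of this list per kb, had log2 fold changes of 0.09 and -0.09 and were not called.

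None of the 5 IKK and related kinases was called by DESeq2 or edgeR, with 1 at an unadjusted p-value under 0.05 and log2 fold changes from -0.32 for Ikbke to 0.04. Neither of the other IkB genes had an unadjusted p-value under 0.05, Nfkbie at -0.19 and Bcl3 at 0.02. Among 13 ubiquitin and turnover regulators, Tnip1, whose product ABIN-1 works with A20, fell from 697.9 ± 57.03 to 470.2 ± 22.7 CPM (DESeq2 adjusted p-value 3.48e-10, log2 fold change -0.57 with SE 0.0793). Zc3h12a, which encodes the RNase Regnase-1 that degrades inflammatory mRNAs, fell from 114.5 ± 5.13 to 84.3 ± 1.98 CPM (log2 fold change -0.44, DESeq2 adjusted p-value 9.78e-05). Only Tnip1 and Zc3h12a of the 5 were also called by edgeR, with adjusted p-values of 0.031 and 0.0389.

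Tnip1 was called in each fit without 1 library, with adjusted p-values between 1.54e-10 and 0.0028, and each of the other 4 genes lost its call in 3 of these 4 fits. Ltb was called only without WT replicate 1 (adjusted p-value 0.00244), and without WT replicate 2, cKO replicate 1 or cKO replicate 2 it gave 0.142, 0.224 and 0.198. Traf1 and Birc3 were called only without WT replicate 2 (4.39e-07 and 0.0338), and without WT replicate 1 they gave 0.378 and 0.225. Zc3h12a likewise was called only without WT replicate 2 (0.00355), with 0.0513 without WT replicate 1.

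**Figure D4:**
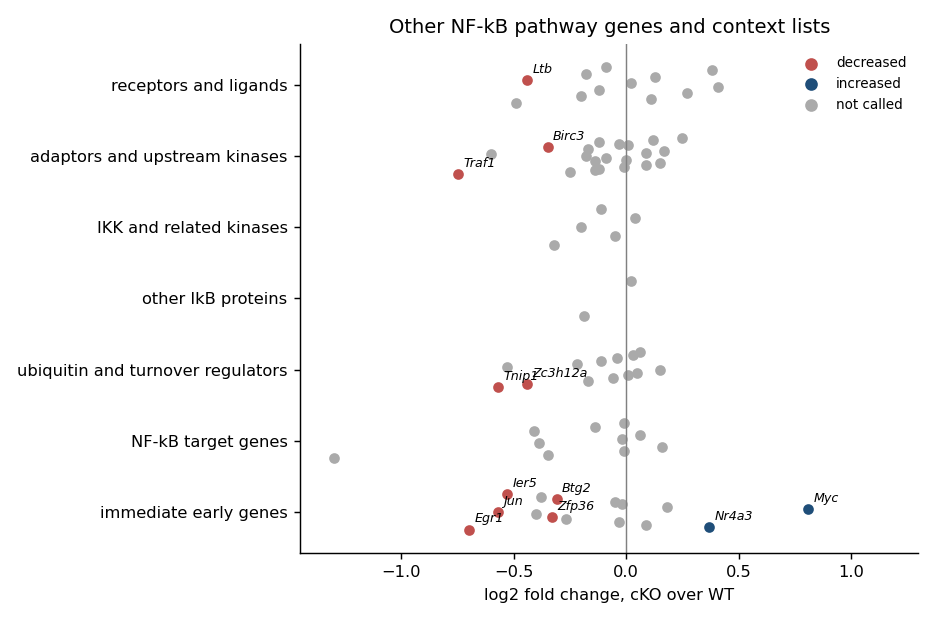
Each point is a gene with a mean CPM of at least 1, placed by its log2 fold change, cKO over WT, in rows for the pathway lists, a list of NF-kB target genes and a list of immediate early genes, with height within a row having no meaning. Red points were decreased, blue points increased and grey points not called by DESeq2. Called genes of the pathway lists all lie below 0, between -0.75 for Traf1 and -0.35 for Birc3, and the immediate early genes have calls on both sides.

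Further target genes of NF-kB, listed apart from the members and the pathway genes, gave no call by DESeq2 or edgeR. Of 20 such genes 10 had a mean CPM of at least 1, and 8 of these were below 0, with a median of -0.08 and a range from -1.30 to 0.16. At an unadjusted DESeq2 p-value under 0.05, 3 were lower and 0 higher in cKO. In 5 of the 10 both cKO libraries lay below WT, beside 24% of all tested genes. The lowest, Ier3, had a mean of 1.08 CPM and no adjusted p-value after independent filtering, so that DESeq2 could not call it. The other 10 of the 20 genes, among them the cytokine genes Il2 and Il6, were below 1 CPM on average.

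Several members are induced within minutes of a stimulus, and therefore immediate early genes were set beside them. Of 15 tested by DESeq2, 5 were decreased (Jun, Egr1, Ier5, Zfp36 and Btg2) and 2 increased (Nr4a3 and Myc), beside 1.57% and 2.14% of all tested genes, with a median log2 fold change of -0.27. Their summed level was 951.2 and 1133 CPM in WT and 917.6 and 890.5 CPM in cKO. Of 6 genes of positively selected thymocytes, Tox was increased and none decreased, and the median log2 fold change was -0.08. Cd69, Itm2a and Cd5 had both cKO libraries below WT, at log2 fold changes of -0.39, -0.56 and -0.22, and were not called. Cd2, with both cKO libraries above WT, and Gata3, whose libraries overlapped, were at 0.16 and 0.06 and were not called either. The sums of this list were 872.6 and 924.4 CPM in WT and 1192 and 1045 CPM in cKO, most of it Tox, and without Tox they were 189.1 and 196.4 CPM in WT and 199.7 and 177.7 CPM in cKO, which overlap. The 8 proliferation genes had no call by DESeq2, and 0 had an unadjusted p-value under 0.05. All 8 were above 0, from 0.13 to 0.53 with a median of 0.37, and 1 of them, Top2a, had both cKO libraries above WT, with list sums of 217.5 and 391.3 CPM in WT and 471.1 and 368.6 CPM in cKO. None of the genes of these 3 lists was called by edgeR. The sum of immediate early genes was thus lower in both cKO libraries, as for most members, and the part of these lists in the changes of the members was not tested.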

How the data were processed

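TTchem-seq of DP thymocytes was analysed in 2 WT and 2 cKO libraries, grouped by sample title. The study describes its replicates as biological, and the mice behind each library are not given in the sources used here. The authors deposited expected counts, fragments per gene with shared fragments split, and 8.61% of values were fractional. The labels name fastp 0.13.1, STAR 2.7.9a and featureCounts 1.6.1 with build mm10 (GRCm38), while the study's methods describe gene counts from STAR. The deposited gene length, a column in bp, equalled the union of transcript intervals in all 24926 genes on 1 chromosome, so introns were counted. Use of strand and removal of duplicates in this table are not given in the sources used here. Yeast spike-in RNA was added but not used by the authors for scaling, so changes are relative to the other genes of a library and a change of all genes would not be seen. The labels' protocol describes poly(A) capture, and the methods rRNA depletion.

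Counts were rounded and tested across all genes with the DESeq2 1.42.0 Wald test, without covariates, in R 4.3.3. Genes had to reach an adjusted p-value under 0.05, a 1.2-fold change and a mean CPM of 1, and 1001 of the 11625 genes with that mean had no adjusted p-value after independent filtering and were not called. Intervals of log2 fold changes are 95% normal intervals. Alternatives used edgeR 4.0.16 quasi-likelihood, limma 3.58.1 voom, other size factors, filters, a replicate block and leaving out each library, where the lone library is assumed to vary like the other genotype. Replicates differed beyond counting noise (chi-square per degree of freedom 40.7 in WT and 30.7 in cKO). Named genes were the members, Tox4, called genes of the lists and the 2 highest pathway genes per list by CPM per kb. Further genes of the marker and target lists, among them Themis, Arpp21, Cd69, Itm2a, Cd5, Cd2, Gata3, Top2a and Ier3, lie outside this rule. They were named with their values known. Members and lists were chosen with earlier results of these data known. The procedures were tested on simulated data. 1 gene of the list of mature T cell markers is not reported here.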

Additional observations from a re-analysis of the deposited data

How the results depend on the processing

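Against 249 increased and 182 decreased genes, 3 members and 5 pathway genes called, edgeR gave 59, 17, 1 and 2, and limma voom 57, 16, 1 and 2. Asking for 1.5-fold gave 106, 44, 0 and 1 by its stricter limit. The deviations of libraries with the same replicate number had a correlation of -0.03 over 11625 genes. This shows no shared shift over all genes, but 1 such value cannot decide whether the libraries were paired. With the replicate block, DESeq2 gave 121 increased and 72 decreased genes, 1 member and 4 pathway genes, and edgeR 67, 29, 1 and 2. Nfkb2 was the member called in each of these but the fold change of 1.5. Without 1 library the counts ranged from 61 to 320 increased genes, from 28 to 126 decreased genes, from 0 to 2 members and from 1 to 5 pathway genes. Nfkb2 was called except without cKO replicate 2, and Nfkbia only without cKO replicate 1. The change of Rel reversed to 0.12 without WT replicate 1 and was -0.21 without WT replicate 2. By CPM not divided by length, 1 of the 10 members kept its place in the order of levels, and per kb all 10 kept it in each fit without 1 library. Of the alternatives for the log2 fold changes of members, 120 kept direction and side of the threshold, 19 lost a call and 1 reversed. A member not called in the main fit counts as kept where it stayed uncalled, so most of the 120 come from the 7 members without a call. All 19 losses fell on Nfkb2, Relb and Nfkbia. The cause was not tested. Each member had at least 1013 fragments per library.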

Other observations

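The kappaB consensus was also counted over all tested genes matched to the RefSeq promoter table, as a description without a test. Of 962 genes with a match in the 250 bases upstream of a start, Nfkb2 and Nfkbia included, 3.43% were decreased in cKO, beside 1.36% of 8148 genes without a match. The median log2 fold change was 0.004 and 0.002 in these groups.

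Neighbouring genes were examined within 25000 bp of the members. Of 17 with a mean CPM of at least 1, 1 was decreased by DESeq2, Sipa1 beside Rela (log2 fold change -0.41, SE 0.121, adjusted p-value 0.02), and 0 were increased. Nfkb2 is overlapped for 893 bp by 4833438C02Rik on the other strand, which had a mean of 7.87 CPM and a log2 fold change of -0.06 (SE 0.235). Sipa1 and 4833438C02Rik were named after their values were seen.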
